A study of Mus musculus with 12 samples.

Results

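*Marco*, *Msr1*, *Cd36*, *Scarb1*, *Stab1*, *Cd163*, *Mrc1* and *Olr1* are 8 scavenger receptor genes, taken by name from the 16971 genes of an RNA-seq table of GFP(+) liver cells. All 8 were listed, and 7 passed a minimum of 10 normalized counts summed over the libraries, which 12889 genes passed. *Olr1*, with a sum of 7.46, did not. The mice were adult C57BL/6 *Prom1*CreERT2-nLacZ/+;*Rosa26*Lsl-GFP/+ animals, and every group, the controls included, had received tamoxifen 7 days before surgery. Tamoxifen, given at 6 weeks of age, activates the Cre that the *Prom1* locus drives. Cells that express *Prom1* (prominin-1, a progenitor marker) and their descendants therefore keep GFP. The libraries came from mice without obstruction (day 0, labelled sham) and from mice whose bile duct had been ligated (BDL), an operation that stops bile from leaving the liver, 3 or 14 days earlier. Live GFP(+) cells were sorted from the nonparenchymal fraction of each liver. The labels describe 3 day 0, 3 BDL day 3 and 6 BDL day 14 libraries, of which 3, 3 and 4 entered the deposited means. Libraries of a group are described as biological replicates. Where 3 values of a gene stand together without labels, they are in the order day 0, BDL day 3, BDL day 14.

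Scavenger receptors are membrane proteins that bind many unrelated ligands, among them modified lipoproteins, bacterial surfaces, haemoglobin complexes and cell debris, and carry most of them into the endosomal pathway. In the liver they are best known from Kupffer cells, the resident macrophages of the sinusoids, and from the sinusoidal endothelium. The class A members, MARCO and MSR1, have collagen-like stalks, whereas the class B members, CD36 and SR-BI (the *Scarb1* product), are anchored in the membrane near both ends.

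The label of the sorted cells was set beside defining markers first, since these genes are not typical of bile duct cells. *Krt19* and *Epcam*, 2 defining cholangiocyte genes, had day 0 means of 21.5 and 12.9 normalized counts, and *Prom1* itself had group means of 6.66, 0.956 and 1.76. A list of 10 cholangiocyte genes summed to 524, 204 and 830. Most of that was *Spp1* (459, 175 and 792), which the list of lipid-associated macrophage genes below also holds. Without *Spp1*, the other 6 kept cholangiocyte genes summed to 61.8, 27.7 and 36.8. The macrophage genes *Lyz2*, *Csf1r* and *Tyrobp* had day 0 means of 2280, 1360 and 1010. The 8 genes of a general macrophage list summed to 6184, 10870 and 15101 normalized counts in the 3 groups, with no gene of the list at the floor of the table in any group. Without *Lyz2*, the most abundant of them, the other 7 summed to 3904, 6310 and 3901. In sorted cells measured in bulk, fewer cells of a type and less RNA of a gene per cell cannot be told apart.

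The proximal promoters of 4 members with differing courses, described below, are shown. Among the members with their highest mean at BDL day 3 are *Marco* and *Cd163*, and among those with it at BDL day 14 is *Stab1*. The means of *Mrc1* stayed within 1.5-fold. RefSeq (GRCm38.p6) gave windows for 6 of the 8 members, with none for *Msr1* and *Scarb1*. Those of *Cd36* and *Olr1* are not printed. Each line holds the 250 bases before the RefSeq start, 5′ to 3′ on the gene's strand, and capitals mark matches on either strand to GAGGAA, the core of the site of PU.1 (a myeloid transcription factor, *Spi1*), or to TGCTGA, a partial MAF site. The windows are chr1:120505025-120505274 (minus strand) for *Marco*, chr14:31168642-31168891 (minus) for *Stab1*, chr6:124304401-124304650 (plus) for *Cd163* and chr2:14229164-14229413 (plus) for *Mrc1*, whose last bases lie in the first exon of GENCODE M21.
Marco: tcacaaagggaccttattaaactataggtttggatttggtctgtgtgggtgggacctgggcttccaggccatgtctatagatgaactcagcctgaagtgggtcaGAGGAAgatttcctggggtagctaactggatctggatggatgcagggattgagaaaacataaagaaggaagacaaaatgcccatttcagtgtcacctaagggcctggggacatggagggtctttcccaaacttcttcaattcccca
Stab1: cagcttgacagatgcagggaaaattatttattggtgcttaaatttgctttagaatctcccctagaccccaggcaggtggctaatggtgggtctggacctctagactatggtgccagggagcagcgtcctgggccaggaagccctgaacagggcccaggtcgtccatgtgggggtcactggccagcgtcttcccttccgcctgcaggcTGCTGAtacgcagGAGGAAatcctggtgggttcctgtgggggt
Cd163: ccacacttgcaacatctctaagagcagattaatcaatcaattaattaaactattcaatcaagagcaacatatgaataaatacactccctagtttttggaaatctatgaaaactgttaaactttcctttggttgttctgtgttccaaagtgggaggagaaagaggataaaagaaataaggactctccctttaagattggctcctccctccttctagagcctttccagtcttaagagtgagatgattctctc
Mrc1: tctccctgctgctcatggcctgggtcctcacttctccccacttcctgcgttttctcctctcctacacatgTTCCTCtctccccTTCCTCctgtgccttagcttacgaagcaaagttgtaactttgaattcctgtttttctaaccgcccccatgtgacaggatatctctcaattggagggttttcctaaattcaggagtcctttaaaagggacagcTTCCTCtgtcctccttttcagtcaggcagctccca

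*Marco* had 1 GAGGAA match, which began 146 bases before its start, and *Stab1* had 1 at 30 bases and a TGCTGA match at 43 bases. *Mrc1* had 3 GAGGAA matches, all on the opposite strand and so read as TTCCTC, at 180, 167 and 35 bases. *Cd163* had no match to either. GAGGAA was found in 4 of the 6 member windows and in 23.3% of 32851 windows of the same length, and TGCTGA in 2 of 6 and in 16.1%. A further search, for TGACNNNGC (the core of the antioxidant response element), found 0 of 6 windows and 10.2% of all. No motif overlapped another. These are matches of letters and not sites of measured binding.

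BDL day 3 and day 14 were each compared with day 0 to follow the receptors through early and established cholestatic injury, and with each other for the course between. The values are the authors' group means of upper quartile normalized counts, with none for a single library apart from the highest and so no replicate test. The error given here is a standard error (SE) of the log2 ratio, from the 1 spread within groups that the gap between the group means and the deposited geometric mean allows per gene. It assumes the same relative spread in all 3 groups. The range that any 1 library of a group could hold was bounded from the group mean, the geometric mean and the highest library. A gene was counted as higher or lower where its means differed by more than 1.5-fold.

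At BDL day 3, 5 of the 7 members that passed the minimum (*Marco*, *Cd36*, *Scarb1*, *Msr1* and *Cd163*) were higher than at day 0, and none was lower. The other 2, *Stab1* and *Mrc1*, were within 1.5-fold. Quantile normalization of the group means left 3 higher (*Marco*, *Cd36* and *Scarb1*) and 1 lower (*Stab1*). Over all 12889 genes 19.2% were higher and 29.2% lower. The median log2 ratio was 0.67 over the 7 members and -0.02 over all genes. For 3 members (*Marco*, *Cd36* and *Scarb1*) the ratio was also more than 2 SE from 0, as it was for 28.9% of all genes. At BDL day 14, 3 members (*Cd36*, *Stab1* and *Msr1*) were higher than at day 0 and 2 (*Marco* and *Cd163*) were lower, against 21.2% and 28.8% of all genes. The median log2 ratio was then 0.16 over the members and -0.04 over all genes. From BDL day 3 to day 14, *Stab1* and *Cd36* were higher and *Marco*, *Cd163* and *Scarb1* lower, against 21.2% and 19.7% of all genes. Both comparisons with day 0 share the same 3 day 0 libraries. No library was labelled sham at day 3 or day 14. Age and the time since surgery and tamoxifen therefore cannot be told apart from bile duct obstruction. The share of males also rose from day 0 to BDL day 14, and group means leave no way to adjust for sex.

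**Figure D1:**
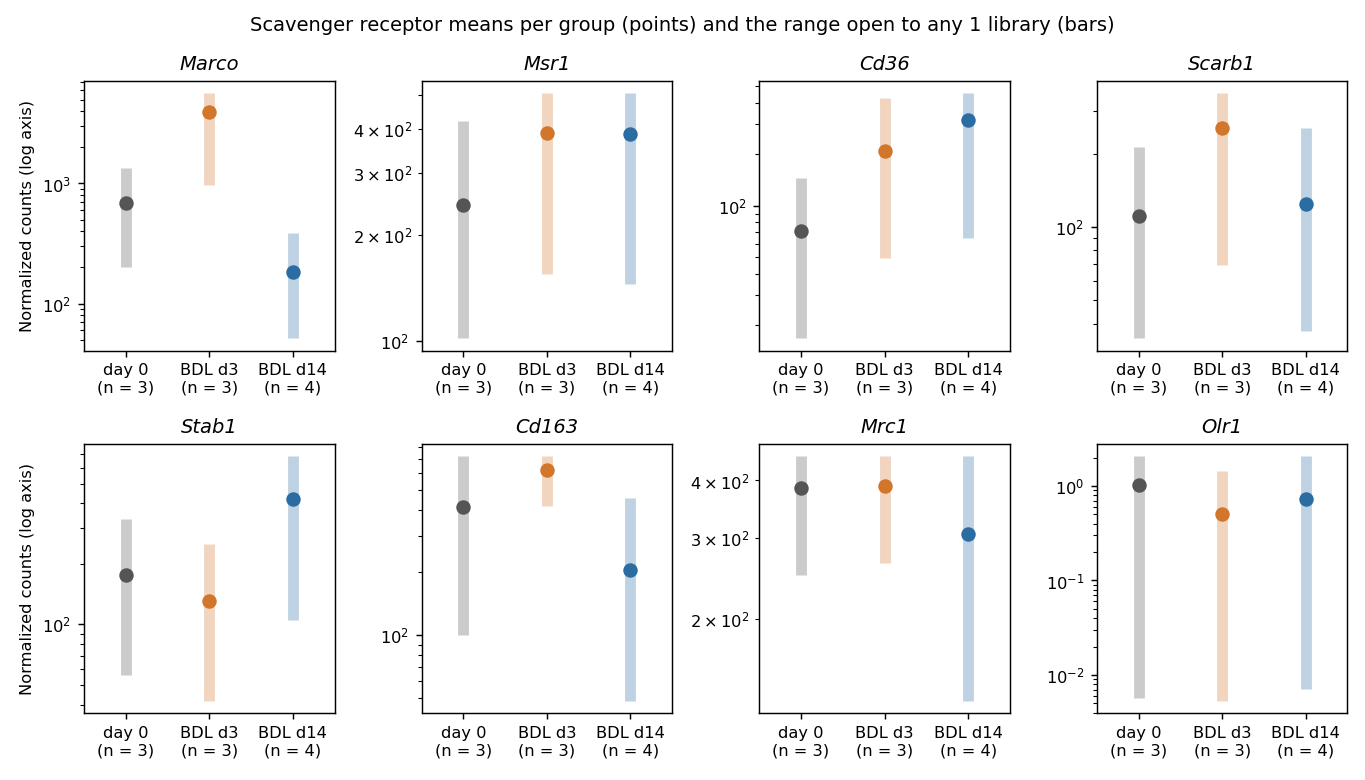
Group means of the 8 scavenger receptor genes (points, normalized counts, log axis, with a scale of its own in each panel) by time point, and the range open to any 1 library of the group (bars, derived bounds and not measured values). Only for *Marco*, between BDL day 3 (970 at the lowest) and BDL day 14 (384 at the highest), do bars of one gene stand wholly apart.

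*Marco* encodes the class A macrophage receptor with collagenous structure, which binds bacteria and particles (ENSMUSG00000026390.7, GRCm38 chr1:120474538-120505024, minus strand). With a day 0 mean of 694 normalized counts, it stood at 3920 at BDL day 3, and at 183 by BDL day 14. The range open to a single *Marco* library was 202 to 1357 at day 0, 970 to 5640 at BDL day 3, then 51.2 to 384 at BDL day 14. *Marco* was 5.65-fold higher at BDL day 3 than at day 0 (log2 ratio 2.50 ± 0.54 SE, n = 3 and 3), and 60 of the genes kept had a larger ratio. By BDL day 14 it was 3.79-fold lower than at day 0 (log2 ratio -1.92 ± 0.50 SE) and 21.4-fold lower than at BDL day 3 (-4.42 ± 0.50 SE). The 3 day 0 and the 3 BDL day 3 libraries could not overlap under any set of values that fits the deposited means jointly, although their separate bounds cross. Nor could the BDL day 3 and BDL day 14 libraries. Of all genes, 3.51% were higher and 4.24% lower without possible overlap at BDL day 3 against day 0, and 1.78% higher and 2.73% lower at BDL day 14 against BDL day 3. *Marco* was the only member so separated in either comparison. Between BDL day 14 and day 0 no member was, and 3.29% of genes were higher and 4.84% lower. The highest *Marco* library, 5640, could only be from BDL day 3, where it held 48.0% of the group's sum. Without it the BDL day 3 mean was 3060 and the log2 ratios 2.14 to day 0 and -4.06 for BDL day 14 against BDL day 3.

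*Msr1*, the class A receptor for acetylated and oxidized low-density lipoprotein (ENSMUSG00000025044.16, chr8:39581685-39642673, minus strand), had means of 244, 389 and 388 normalized counts, lower at day 0 than in both BDL groups. Single *Msr1* libraries could range from 102 to 423 at day 0, 155 to 506 at BDL day 3, then 145 to 506 at BDL day 14, so the ranges of the 3 groups overlap widely. The log2 ratio was 0.67 ± 0.39 (SE) at BDL day 3 and 0.67 ± 0.37 at BDL day 14, each within 2 SE of 0. Between the BDL groups it was -0.00 ± 0.37. When the 3 group means were quantile normalized, the log2 ratios were 0.20 and 0.48, below 1.5-fold at both times. The highest library, 506, could be from either BDL group. Taken out of BDL day 3 it left a log2 ratio to day 0 of 0.44 there, and taken out of BDL day 14 one of 0.51, both also below 1.5-fold.

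The 2 class A receptors thus had different courses. Per kilobase of merged exon, *Marco* stood at 361, 2036 and 95.1 normalized counts, and *Msr1* at 38.5, 61.3 and 61.2. *Marco* had the highest level per kilobase of the 8 members in each group.

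*Cd36* encodes a class B receptor for long-chain fatty acids, oxidized lipoprotein and thrombospondin (ENSMUSG00000002944.15, chr5:17781690-17888801, minus strand). Its means were 70.8, 208 and 319 normalized counts, the lowest at day 0 and the highest at BDL day 14. For a single *Cd36* library the range was 16.7 to 146 at day 0, 49.1 to 429 at BDL day 3, then 64.7 to 455 at BDL day 14, so overlap could not be decided for any pair. *Cd36* was 2.94-fold higher at BDL day 3 (log2 ratio 1.55 ± 0.58 SE) and 4.51-fold higher at BDL day 14 (2.17 ± 0.54) than at day 0. The difference between the BDL groups, 0.62 ± 0.54, was within 2 SE. The highest library, 455, could only be from BDL day 14. Without it that mean was 274 and the log2 ratio to day 0 was 1.95, and the ratio to BDL day 3, 0.40, was within 1.5-fold.

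*Scarb1* encodes SR-BI, the class B receptor for high-density lipoprotein (ENSMUSG00000037936.15, chr5:125277087-125341094, minus strand), and differed in course from *Cd36*. Its means were 111, 254 and 124 normalized counts, highest at BDL day 3. A single library could range from 34.7 to 212, 69.5 to 354 and 37.4 to 254 in the 3 groups, which therefore could overlap. *Scarb1* was 2.29-fold higher at BDL day 3 than at day 0 (log2 ratio 1.19 ± 0.49 SE) and 2.05-fold lower at BDL day 14 than at BDL day 3 (-1.03 ± 0.46). On BDL day 14 it was within 1.5-fold of day 0 (0.16 ± 0.46). The highest library, 354, could only be from BDL day 3 and held 46.5% of the sum there. Without it the log2 ratio was 0.88 to day 0. The ratio of *Cd36* to *Scarb1* per kilobase was 1.51 on day 0, 1.94 on BDL day 3 and 6.09 on BDL day 14. It rests on merged exon lengths of 3590 bases for *Cd36* and 8500 for *Scarb1*. By counts alone, *Scarb1* was above *Cd36* at day 0 (111 against 70.8) and at BDL day 3 (254 against 208).

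*Cd163*, the macrophage receptor for haptoglobin-haemoglobin complexes (ENSMUSG00000008845.9, chr6:124304656-124330527, plus strand), had means of 413, 624 and 206 normalized counts, highest at BDL day 3 and lowest at BDL day 14. Its single libraries had to lie within 100 to 726 at day 0, 419 to 726 at BDL day 3, then 48.1 to 458 at BDL day 14. The BDL day 3 libraries thus all lay at or above the day 0 mean, but the groups could overlap. The ratio at BDL day 3 was 1.51-fold higher, just past the minimum (log2 ratio 0.60 ± 0.55 SE). Later, at BDL day 14, *Cd163* was 2.00-fold lower than at day 0 (-1.0 ± 0.51 SE, within 2 SE of 0) and 3.03-fold lower than at BDL day 3 (-1.60 ± 0.51). Its highest library, 726, could be from day 0 or from BDL day 3. If it was a day 0 library, the other day 0 libraries had a mean of 257, and without it the log2 ratios were 1.28 at BDL day 3 and -0.32 at BDL day 14, the latter within 1.5-fold. If it was a BDL day 3 library, the BDL day 3 ratio without it was 0.47, within 1.5-fold. Under quantile normalization the BDL day 3 ratio was 0.17, also within 1.5-fold.

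*Mrc1* encodes the mannose receptor CD206 of macrophages and sinusoidal endothelium (ENSMUSG00000026712.3, chr2:14229392-14332057, plus strand). Its means were 385, 390 and 306 normalized counts, all within 1.5-fold of each other. The log2 ratios were 0.02 ± 0.35 (SE), -0.33 ± 0.32 and, between the BDL groups, -0.35 ± 0.32. Its spread within groups, 34.3% (1 SD of the natural log, given as a rise in percent), was the smallest of the members. The median over all genes kept was 49.1%. The range open to 1 library was 250 to 452 at day 0, 265 to 452 at BDL day 3, then 133 to 452 at BDL day 14. Quantile normalization turned the BDL day 3 ratio to -0.48, so no direction is given for it. The *Marco* to *Mrc1* ratio per kilobase was 5.97 on day 0, 33.3 on BDL day 3 and 1.98 on BDL day 14.

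*Stab1* encodes stabilin-1, an endocytic receptor of sinusoidal endothelium and of some macrophages (ENSMUSG00000042286.13, chr14:31139013-31168641, minus strand). Its means were 176, 131 and 420 normalized counts, highest at BDL day 14. Single *Stab1* libraries could range from 55.9 to 335, 41.6 to 250 and 105 to 686 in the 3 groups, which could overlap. *Stab1* was within 1.5-fold of day 0 at BDL day 3 (log2 ratio -0.43 ± 0.54 SE). Quantile normalization gave -0.73, past 1.5-fold lower. By BDL day 14 it was 2.39-fold higher than at day 0 (1.25 ± 0.50) and 3.21-fold higher than at BDL day 3 (1.68 ± 0.50). The highest library, 686, could only be from BDL day 14. Without it the mean there was 331 and the log2 ratios were 0.91 and 1.34.

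*Olr1*, which encodes the endothelial receptor for oxidized low-density lipoprotein, LOX-1 (ENSMUSG00000030162.14, chr6:129485244-129507165, minus strand), had means of 1.02, 0.509 and 0.723 normalized counts. Its highest library was 2.08. The SE of its log2 ratios, between 1.25 and 1.33, was larger than each ratio (-1.0 at BDL day 3, -0.50 at BDL day 14 and 0.51 between them). At these levels no difference was detectable.

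**Figure D2:**
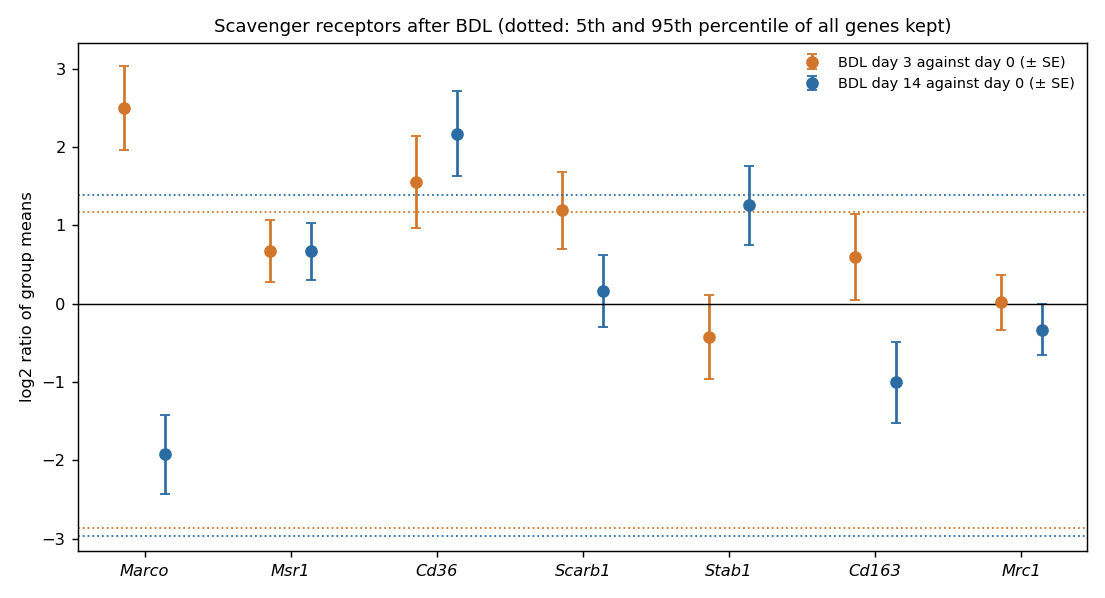
Log2 ratio of group means (± SE) at BDL day 3 and BDL day 14 against day 0 for the 7 scavenger receptors that passed the minimum. Dotted lines mark the 5th and 95th percentiles over 12889 genes (-2.86 and 1.17 for BDL day 3, -2.97 and 1.39 for BDL day 14). *Marco* lies above 0 at BDL day 3 and below it at BDL day 14.

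Ranked per kilobase, the order behind *Marco* differed between groups. At day 0 *Cd163* (75.6), *Mrc1* (60.4) and *Msr1* (38.5) came next, followed by *Cd36* (19.7), *Stab1* (17.1) and *Scarb1* (13.1). At BDL day 3 *Msr1*, *Mrc1* and *Cd36* were close, at 61.3, 61.2 and 57.9 normalized counts per kilobase, below *Cd163* at 114. In the BDL day 14 group *Cd36* (88.9) was second after *Marco* (95.1), and *Cd163* (37.7) had come after *Stab1* (40.8). Neighbours such as *Cd36*, *Stab1* and *Scarb1* at day 0, *Msr1*, *Mrc1* and *Cd36* at BDL day 3, or *Marco* and *Cd36* at BDL day 14 lay closer together than the spread within groups, which was 34.3% to 63.9% for the 7 members. *Olr1* was lowest throughout, at 0.142 to 0.286. The order depends on the merged exon lengths: by counts alone, *Cd36* (70.8) was below *Stab1* (176) and *Scarb1* (111) at day 0.

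The genes whose pair of log2 ratios to day 0 lay nearest to each member were then found among those with a mean of at least 10 normalized counts. The likeness is a distance over 3 group means only. For *Marco* they were *Dnajb13* (distance 0.38), *Cd300e* (0.57) and *Ephx1* (0.76), and only 1 of 7290 genes lay within 0.5. *Cd36* had 44 genes within 0.5, led by *Atf6*, *Adssl1* and *Slc6a6*, and *Stab1* had 69, led by *Tagap*, *Dtx4* and *Sorl1*. *Cd163* had 136 (*Ccdc12*, *Ctnnd1* and *Hist1h1c*) and *Scarb1* 345 (*Top3a* and *2410002F23Rik*). *Msr1* had 1649 (*Nabp2*, *Ttc13* and *Actr1a*) and *Mrc1* 1706 (*Rnf111*, *Tpp2* and *Ndufb2*). For *Olr1*, whose ratios were smaller than their SE, 321 genes lay within 0.5, with *Numa1*, *Gm43305* and *Rbpms* nearest.

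Among 16 other scavenger receptors that passed the minimum (of 17 listed in the table), 7 were higher and 9 lower at BDL day 3, and 4 higher and 6 lower at BDL day 14, with median log2 ratios of -0.80 and -0.13. The 4 with the highest means were *Cd68*, *Lrp1*, *Clec7a* and *Cxcl16*. Over all libraries, the 7 genes higher at BDL day 3 had means of 50.9 to 725 normalized counts. Those lower there had means of only 1.54 to 21.1, with spreads within groups of 64.7% to 399%, apart from *Stab2* (mean 127). *Clec7a*, the beta-glucan receptor dectin-1, had means of 140, 395 and 524 normalized counts, and its groups could not overlap with day 0 at either time. *Lrp1*, a large receptor of the lipoprotein receptor family, had 396, 892 and 516, highest at BDL day 3 as *Scarb1* was. *Cd68* (508, 1050 and 646) and *Cxcl16* (168, 315 and 255) were also highest at BDL day 3. *Stab2*, the paralogue of *Stab1*, singled out after its values were seen, had 178, 93.7 and 113, whereas *Stab1* was highest at BDL day 14. The 3 relatives of *Mrc1* in the mannose receptor family, *Mrc2*, *Ly75* and *Pla2r1*, were all lower at both times, from day 0 means of only 6.37, 2.28 and 5.97 normalized counts. Their median log2 ratios were -3.86 and -1.82, with *Mrc2* and *Ly75* at the floor at BDL day 3.

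**Figure D3:**
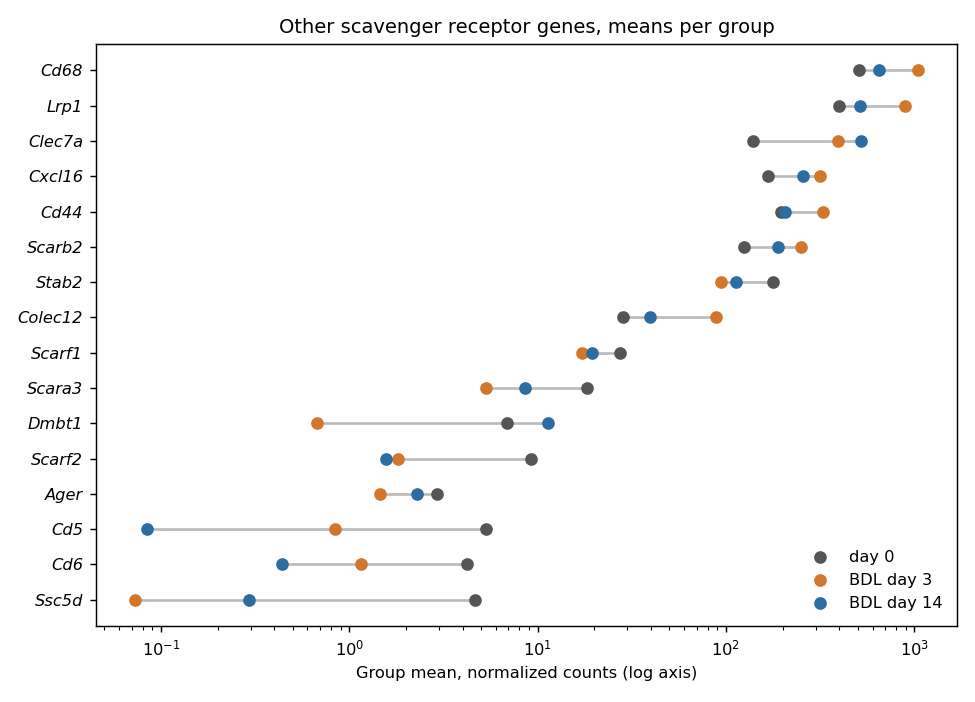
Group means of 16 other scavenger receptor genes (normalized counts, log axis) by time point, ordered by their mean over all libraries. The points of *Ssc5d* at BDL day 3 (0.0729) and *Cd5* at BDL day 14 (0.0843) lie at the floor of the table, and *Clec7a* was higher at BDL day 3 (395) and day 14 (524) than at day 0 (140).

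Of 10 genes of fatty acid handling set beside *Cd36*, 5 were higher and 1 lower at BDL day 3, and 5 higher and none lower at BDL day 14 (median log2 ratios 0.51 and 0.47). *Fabp5*, a fatty acid-binding protein, had means of 30.1, 65.8 and 494 normalized counts and, like *Cd36*, its highest mean at BDL day 14 (log2 ratio 4.04 ± 0.37 SE). *Lpl*, lipoprotein lipase (540, 1250 and 680), and *Plin2*, a lipid droplet coat protein (174, 276 and 207), were highest at BDL day 3. *Cd9* had 41.3, 50.3 and 120. Both *Fabp5* and *Cd9* also stand in the list of lipid-associated macrophage genes below.

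Of 10 genes of high-density lipoprotein and cholesterol efflux set beside *Scarb1*, 6 were higher and 1 lower at BDL day 3, and 3 higher and 5 lower at BDL day 14 (median log2 ratios 0.80 and -0.60). *Apoe*, the apolipoprotein of macrophages and hepatocytes, had means of 7330, 15300 and 22500 normalized counts. *Pltp*, phospholipid transfer protein, had 609, 1110 and 279, and *Apoa1* had 152, 109 and 45.7. *Nr1h3*, the liver X receptor alpha, had 274, 457 and 34.9, and its BDL day 14 libraries could not overlap those of either other group.

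Of 10 genes of haemoglobin and haem handling set beside *Cd163*, 4 were higher and 2 lower at BDL day 3, and 1 higher and 5 lower at BDL day 14 (median log2 ratios 0.51 and -0.43). *Hmox1*, which encodes the haem-degrading enzyme haem oxygenase 1, had means of 606, 3140 and 840 normalized counts (log2 ratio 2.37 ± 0.38 SE at BDL day 3), and its BDL day 3 libraries could not overlap either other group. *Slc40a1*, the iron exporter ferroportin (711, 1500 and 459), was, like *Cd163*, highest at BDL day 3 and lowest at BDL day 14. It also stands in the Kupffer cell list below. The ferritin genes *Ftl1* (6730, 15000 and 9040) and *Fth1* (2290, 5570 and 4420) were highest at BDL day 3.

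Of 12 transcription factors known from macrophage receptor genes, 5 were higher and 2 lower at BDL day 3, and 2 higher and 4 lower at BDL day 14 (median log2 ratios 0.18 and -0.14). *Spi1* (PU.1) had means of 200, 397 and 188 normalized counts, *Irf8* 111, 209 and 182, and *Id3* 287, 275 and 101. Of 14 endocytic and phagocytic partners, 4 were higher and none lower at BDL day 3, and 5 higher and 1 lower at BDL day 14 (0.34 and 0.50). They include the lysosomal membrane proteins *Lamp1* (640, 1410 and 1590) and *Lamp2* (205, 301 and 420), the endosomal GTPase gene *Rab7* (156, 309 and 379) and the integrin *Itgb2* (168, 445 and 369).

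Markers of the cells that carry these receptors moved between the groups as well. Of 8 Kupffer cell genes, 6 were higher and none lower at BDL day 3 (median log2 ratio 0.88), and all 8 were lower at BDL day 14 (-2.78). The list summed to 10373, 20153 and 1728 normalized counts, with no gene at the floor. *Clec4f*, which defines Kupffer cells in mice, had means of 4610, 6890 and 185, and *Vsig4* had 1020, 2040 and 207. *Cd5l* had 2620, 7440 and 691. *Marco* and *Cd163* shared this direction at both times, but both *Cd163* ratios (0.60 ± 0.55 SE and -1.0 ± 0.51) were within 2 SE of 0. The part of Kupffer cell numbers in the values of *Marco* and *Cd163* was not tested. The *Marco* ratio at BDL day 3 (2.50) was above that of all 8 Kupffer genes, whose highest was 1.51. Later, the BDL day 14 ratios of *Marco* (-1.92) and *Cd163* (-1.0) lay within the range of the list, -4.66 to -0.63. The upper end was *Slc40a1* alone, and the next gene was *Id3* (-1.51), so *Cd163* lay above every gene of the list but *Slc40a1*.

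Of 10 sinusoidal endothelial genes, all 10 were lower at BDL day 3 (median log2 ratio -1.75), and 3 were higher and 3 lower at BDL day 14 (0.19). Against BDL day 3, 9 were higher at BDL day 14 (2.24). The list summed to 1345, 419 and 1708 normalized counts, with no gene at the floor. Without *Fcgr2b*, an Fc receptor and the most abundant of them, the other 9 summed to 1160, 362 and 1105, and 5 of the 10 genes had their highest mean at day 0 and 5 at BDL day 14. *Stab1* was, like these sums, lowest at BDL day 3, with a smaller difference to day 0 (-0.43) than any of the 10 genes (-3.52 to -0.93). The part of endothelial RNA in the *Stab1*, *Mrc1* and *Scarb1* values was not tested. *Fcgr2b* had means of 185, 57.0 and 603, and *Clec4g* had 241, 69.5 and 365. *Dnase1l3* (217, 60.4 and 117) and *Stab2* (178, 93.7 and 113) were highest at day 0.

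Of 7 genes of lipid-associated macrophages, 5 were higher and 1 lower at BDL day 3, and all 7 were higher at BDL day 14 (median log2 ratios 2.12 and 3.40), with sums of 949, 2560 and 4649 normalized counts. *Trem2*, a lipid-sensing receptor of these cells, had means of 42.5, 291 and 613, and *Gpnmb* had 13.2, 164 and 1130, the order of groups that *Cd36* had. *Lgals3* (356, 1550 and 1430) was highest at BDL day 3, and *Spp1* (459, 175 and 792) was lowest there. Of the 7 genes, 5 had their highest mean at BDL day 14 and the other 2 at BDL day 3, and the part of these cells in the *Cd36* values was not tested. Of 8 monocyte-derived cell genes, 4 were higher and 1 lower at BDL day 3, and 6 higher and 2 lower at BDL day 14 (0.31 and 3.47), with sums of 364, 490 and 2126. *Pf4*, a platelet gene that macrophages can also express (37.2, 82.7 and 221), led the 4 kept genes of a platelet list (1 higher and 3 lower at BDL day 3, and 3 higher and 1 lower at BDL day 14, medians -1.12 and 1.31).

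The members were also set beside the general macrophage list. Of its 8 genes, 6 were higher at BDL day 3 and none lower, and 1 was higher and 1 lower at BDL day 14, with median log2 ratios of 0.78 and 0.22. Taken from the member's own ratio, these medians left *Marco* at 1.71 and -2.14, *Cd36* at 0.77 and 1.95, and *Stab1* at -1.21 and 1.03. *Cd163* was at -0.19 and -1.23, *Scarb1* at 0.41 and -0.06, *Msr1* at -0.11 and 0.45, and *Mrc1* at -0.77 and -0.55. The 8 genes themselves ranged from -0.22 to 1.05 at BDL day 3 and from -1.13 to 2.30 at BDL day 14. In the earlier comparison *Marco* (2.50 ± 0.54 SE), *Cd36* (1.55 ± 0.58) and *Scarb1* (1.19 ± 0.49) lay above the range and *Stab1* (-0.43 ± 0.54) below it. For *Cd36*, *Scarb1* and *Stab1* the nearer end of the range was within 1 SE. The BDL day 14 ratio of *Marco* (-1.92) lay below the BDL day 14 range, and those of the other 6 members lay within it. Each end of that range was a single gene, *Lyz2* (2.30) and *Aif1* (-1.13). The next genes inward were *Adgre1* (0.58) and *Csf1r* (-0.14), and of the 6 members only *Scarb1* (0.16) lay between these.

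**Figure D4:**
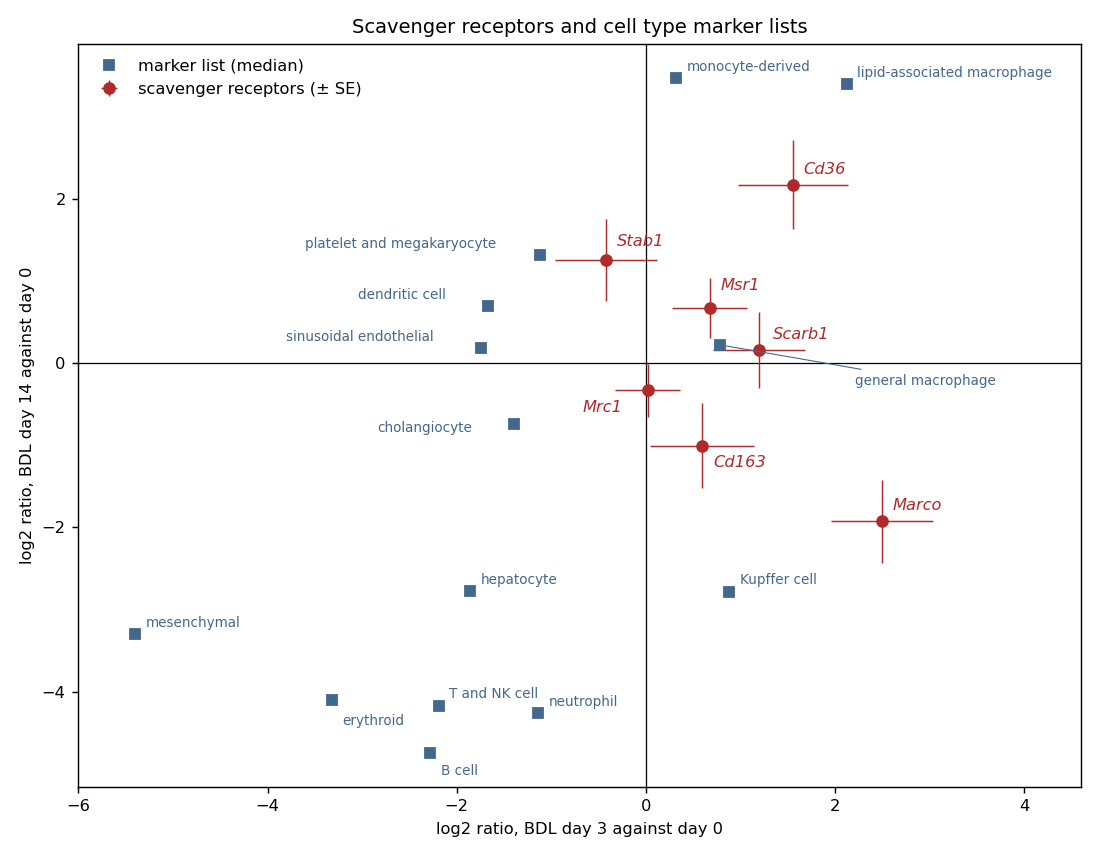
Log2 ratios to day 0 at BDL day 3 (horizontal axis) and BDL day 14 (vertical axis) for the 7 scavenger receptors (circles, ± SE) and the medians of 14 cell type marker lists (squares). *Marco* (2.50 and -1.92) lies in the same quadrant as the Kupffer cell list (0.88 and -2.78), and *Cd36* (1.55 and 2.17) in that of the lipid-associated macrophage list (2.12 and 3.40). The general macrophage (0.78 and 0.22) and monocyte-derived (0.31 and 3.47) lists also lie in the quadrant of *Cd36*. So do *Msr1* (0.67 and 0.67) and *Scarb1* (1.19 and 0.16).

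The other marker lists were lower in most genes at BDL day 3. At that time all 6 erythroid, all 6 B cell, all 9 mesenchymal and all 7 kept cholangiocyte genes were lower, as were 6 of 7 T and NK cell, 5 of 7 neutrophil, 8 of 10 hepatocyte and 5 of 6 dendritic cell genes (1 higher). By BDL day 14 all erythroid, B cell, mesenchymal, T and NK cell, neutrophil and hepatocyte genes were lower. Of the cholangiocyte genes 5 were then lower and 1 higher, and of the dendritic cell genes 2 lower and 4 higher. In the order erythroid, B cell, mesenchymal, T and NK cell, neutrophil, hepatocyte, cholangiocyte and dendritic cell, the median log2 ratios were -3.32, -2.28, -5.40, -2.19, -1.14, -1.86, -1.39 and -1.67 at BDL day 3. They were -4.10, -4.74, -3.30, -4.17, -4.26, -2.77, -0.75 and 0.70 at BDL day 14. Hepatocytes also express *Scarb1*, and the part of their RNA in its values was not tested.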

How the data were processed

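GFP(+) cells were sorted from mouse livers at day 0 and 3 and 14 days after BDL, and polyadenylated RNA was sequenced. In Partek Flow, the authors quality-trimmed reads, mapped them with STAR (mm10), quantified GENCODE M18 genes and applied upper quartile normalization. The submitters' processing notes give STAR 2.6.1d and the methods another version. The deposited table holds signal values, namely the authors' least squares mean of normalized counts per group, the mean and geometric mean over all libraries and the highest library, with 0 columns of values per library, so depth per library is unknown and no counting error could be given. It also holds p-values, FDR, ratios, fold changes and limits of the authors' own comparisons, which were not used. The authors left out 2 BDL day 14 libraries for too few reads. Both sexes are in each group, in unequal proportions, with a share of males that rises from day 0 to BDL day 3 to BDL day 14. Group sizes of 3, 3 and 4 gave back the mean over 10 libraries with a 99th percentile deviation of 0.469%.

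Genes were kept at a sum of at least 10 normalized counts, and of 2 repeated symbols the first was used. A mean no higher than 4-fold its group's smallest value (0.512, 0.292 and 0.244) was taken to be at the floor. The members and gene lists were chosen with earlier results of these data known. Some lists share genes and are not independent. Among the other scavenger receptors, *Cd68* is also in the general macrophage list and *Stab2* in the sinusoidal endothelial list. The text names all 8 members, up to 4 genes with the highest means of each list and the 3 genes nearest to each member, of which 1 is not reported here. Other list genes it names, *Prom1* included, were picked after their values were seen. The standard errors and the bounds on single libraries were added after the data were seen. The spread within groups was taken as the square root of 2 times the summed log gap between group means and geometric mean over the residual degrees of freedom, assuming log-normal values with 1 spread for all groups. The spread and the bounds were tested on simulated data with 1 spread per gene in all groups. That simulation could not test whether the groups share 1 spread. Lengths and positions are from GENCODE M21 (GRCm38). Alternatives were a minimum fold of 2, a pseudocount of 1, other filters, median-ratio scaling, quantile normalization and leaving out the highest library. Python 3.11.15 with pandas 2.3.3 and numpy 2.4.6 was used.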

Additional observations from a re-analysis of the deposited data

How the results depend on the processing

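Calls rest on the fold between group means. At BDL day 3 against day 0, 3 members passed a minimum fold of 2 in place of 5 at 1.5, and 3 passed when a ratio over 2 SE was also asked (chosen after seeing the data). At BDL day 14 against day 0 that second rule also left 3 of 5. The other totals of members past the fold stayed within 1.5 times their first value. Between the BDL groups the number higher went from 2 to 1 at a minimum fold of 2. Of 108 log2 ratios of single members under the other scalings, a pseudocount of 1 and without the highest library, 105 moved by less than the spread within groups, 3 moved by more and 0 reversed a call. The 3 were *Cd163* with its highest library taken from day 0 (1.28 and -0.32) and *Mrc1* at BDL day 3 under quantile normalization (-0.48). Some of the 108 could not move, since the library left out belonged to neither group of the ratio. A call could also be lost within that spread. Under quantile normalization the BDL day 3 ratios of *Msr1* (0.20) and *Cd163* (0.17) moved by less than the spread but fell within 1.5-fold. Quantile normalization moved the median log2 ratio of all genes by 0.14 at both times and gave 3 members higher and 1 (*Stab1*) lower at BDL day 3 in place of 5 and 0, and median-ratio scaling moved it by 0.02 and 0.03. Without the highest library where 1 group could hold it, 4 members in place of 5 differed between the BDL groups, since *Cd36* no longer did. No single library could be left out in turn, because the table holds group means only. No paired analysis was possible because the columns carry no replicate and the result comes from no test.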
